A study of Mus musculus with 40 samples.

Results

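Described here are the genes for the precursors of 7 neuropeptides made in the mouse retina: Cck, Vip, Sst, Npy, Penk, Tac1 and Crh. They were chosen by symbol, as 7 of the 42037 gene symbols in the deposited count and TPM tables, and 7 of 7 passed the filter on low counts that left 23495 genes for testing. The choice was made with earlier results of these data known. Shares of all genes set beside counts of the 7 are therefore a description and no test. The values of the 7 genes come from RNA-seq of 40 C57BL/6J retinas, each a whole retina and a library of its own. The retinas form 10 groups of 4, 5 groups at postnatal day 17 (P17) and the same 5 at P19. One condition is the control without retinopathy (nOIR), and the other 4 have oxygen-induced retinopathy (OIR). In this model pups breathe 75% O2 from P7 to P12 and go back to room air, so that the retina first loses capillaries and then sprouts abnormal vessels. The 4 OIR conditions differ in the antibody put into the vitreous at P14, in a volume of 1 µl. The first was a control IgG (0.4 µg/µl). The next were B20.4.1, which binds VEGFA, and LC10, which binds ANG2 (0.2 µg/µl each), called anti-VEGFA and anti-ANG2 here. The last, B20.4.1_LC10, binds both targets (0.4 µg/µl) and is called bispecific. VEGFA drives vessel sprouting, and ANG2 loosens vessel walls through the receptor TIE2. The labels do not say whether control eyes were injected, so OIR and the injection cannot be told apart in any comparison with controls. They call the 4 samples of a condition independent without saying which retinas shared a mouse or a litter, and the p-values therefore measure the spread between these retinas.

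Neuropeptides are cut from longer precursors, packed into dense-core vesicles and released beside a fast transmitter, usually GABA or glycine in the retina. Most retinal peptide cells are amacrine cells, the interneurons of the inner retina, and some peptides are also found in ganglion cells. Their receptors are G-protein-coupled and act on neurons, glia and vessels. Cck encodes cholecystokinin. Tac1 encodes substance P and neurokinin A, and Vip encodes vasoactive intestinal peptide, a vessel-widening peptide of wide-field amacrine cells. Npy encodes neuropeptide Y, Sst somatostatin, Penk the enkephalins, and Crh corticotropin-releasing hormone, which marks several amacrine types.

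The 7 genes lie on 6 chromosomes (GRCm38, GENCODE annotation). Cck is at chr9:121489824-121495694 on the minus strand, Vip at chr10:5639218-5647617 on the plus strand, Sst at chr16:23889573-23890958 on the minus strand and Npy at chr6:49822710-49829507 on the plus strand. Penk is at chr4:4133531-4138819 on the minus strand, Tac1 at chr6:7554879-7565834 on the plus strand and Crh at chr3:19693401-19695396 on the minus strand. Penk alone overlaps another annotated gene, the transcript A830012C17Rik on the opposite strand. The sources used here do not say whether counting used strand, so reads from the shared stretch cannot be assigned to 1 of the 2.

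Promoters of 5 of the 7 genes (Cck, Tac1, Sst, Vip and Npy) were matched in RefSeq's table for GRCm38.p6 and searched over the 250 bases before the start. Windows from 4 of them are shown because Cck and Tac1, called at both ages in the mean of the OIR groups, hold the same pair of short motifs, and because Sst and Vip carry the cAMP response element or its shorter form. Each run is 30 bases, 5′ to 3′ on the gene's strand. Capitals mark CACGTG (an E-box, the same on both strands), TGACGTCA (the cAMP response element) and TGACG (its core, which TGACGTCA contains) or its reverse complement CGTCA.
Cck: tgagCACGTGtcctgctggactgCGTCAgc
Tac1: gtgtCACGTGgctctacaggctCGTCAcgc
Sst: tggcTGACGTCAgagagagagtttaaaaag
Vip: actgTGACGtctttcggggagccttctgat
These runs lie at chr9:121495735-121495764 (Cck, 70 to 41 bases before the start), chr6:7554996-7555025 (Tac1, 65 to 36 bases), chr16:23890867-23890896 (Sst, 52 to 23 bases) and chr10:5639135-5639164 (Vip, 83 to 54 bases). GENCODE places the Tac1 and Sst runs inside an exon that begins further upstream, and the Cck and Vip runs outside the Cck and Vip genes. Overlap of the runs with other genes was not checked. CACGTG was found in 2 of the 5 promoters and in 6.02% of 32851 promoters. TGACG on either strand was found in 4 of the 5 (Cck, Tac1, Sst and Vip) and in 17.77% of all, and TGACGTCA in Sst and 1.55% of all. CACGTG and TGACG stood together in Cck, Tac1 and 1.53% of all promoters. The search also covered 2 hypoxia response cores, ACGTG (Cck and Tac1, inside CACGTG, and 16.57% of all) and GCGTG (Tac1, Npy, Sst and 28.16%). It covered TATAAA too (Vip and 12.37% of all). The windows and the pair were chosen by their hits, so the shares are a description and no test. These are matches of letters, with no binding measured.

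Depth ran from 9155000 to 25840000 counts per library, with a median of 17020000. Rod genes, which mark the most numerous cells of the retina, summed to 27190 to 51160 CPM in the 40 libraries. Some marker sums of other cells did not overlap between controls and the IgG group. Microglia genes read 34.6 to 57.9 CPM in controls and 112 to 207 CPM in IgG retinas at P17, and 34.1 to 44.1 against 104.5 to 151 CPM at P19. At P17 bipolar cell genes read 1291 to 1585 against 845 to 1202 CPM and cone genes 1306 to 1864 against 1949 to 2395 CPM. At P19 rod genes read 40680 to 45430 against 31670 to 40350 CPM, Müller glia genes 1601 to 1746 against 1918 to 2198 CPM and endothelial genes 5.79 to 8.13 against 10.6 to 14.1 CPM. Their part in the neuropeptide differences was not tested. Genes of 2 neighbouring tissues were also present. Those of the pigment epithelium (11 genes) summed to 289 to 560 CPM in P17 controls and 891 to 1648 CPM in the P17 IgG group, whereas at P19 the ranges were 441 to 1295 and 897 to 1266 CPM. Rpe65, the retinoid isomerase of that layer, averaged 20.8 ± 9.48 CPM in P17 controls and 96.5 ± 32.2 CPM in the P17 IgG group (SD, n = 4). The lens crystallin Cryaa ran from 0 to 0.135 CPM in P17 controls and from 1.67 to 1380 CPM in the P17 IgG group. Lens genes (12 genes) passed 1000 CPM in 3 libraries: replicate 4 of the IgG group, replicate 4 of the anti-VEGFA group and replicate 2 of the anti-ANG2 group, each at P17. Together with replicate 3 of the bispecific group at P19 (the lowest total) and replicate 3 of the anti-VEGFA group at P19 (the lowest median correlation with other libraries), these made 5 libraries that were left out in a further fit. The TMM scaling factors were 1.06 to 1.28 in P17 controls and 0.94 to 1.01 in the P17 IgG group. A high factor lowers the CPM of every gene in that library by the same ratio, and replicate 3 of the P17 controls had the highest. Sex was uneven across groups: Y-linked counts were high in all 4 retinas of the IgG group at P19 and of the anti-VEGFA group at P17, 0 in the anti-ANG2 group at P17 and the bispecific group at P19, and mixed in the controls. A covariate for Y-linked counts changed none of the counts of called neuropeptide genes. In 2 comparisons sex split fully with the antibody, bispecific against IgG at P19 and anti-VEGFA against anti-ANG2 at P17. There the groups compared cannot tell sex and antibody apart.

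Expression levels between genes were compared as TPM, which divides by transcript length. Over the 40 libraries Npy had the highest mean, 296 ± 92.8 TPM (SD), followed by Tac1 at 137 ± 26.6, Cck at 41.1 ± 24.9, Penk at 33.5 ± 9.57, Vip at 24.8 ± 6.22, Sst at 10.7 ± 5.21 and Crh at 5.68 ± 4.41 TPM. Npy and Tac1 held the first 2 places in each of the 10 groups. The order below them was not the same in every group. In P17 controls Cck came next at 84.2 ± 9.32 TPM (SD, n = 4), within reach of Tac1 at 94.4 ± 4.93, and their libraries overlapped. In the P17 IgG group Cck had 25.1 ± 8.84 TPM and came below Penk (40.4 ± 14) and Vip (28.7 ± 6.76), though the ranges of Vip and Cck overlapped. Crh was last at P17 in each condition, and at P19 its mean was above that of Sst in the 4 OIR groups and below it in controls, with overlapping ranges in each of the 5. Sst and Crh rested on few reads, 10 to 117 and 5 to 291 counts per library, while Npy had 390 to 2149 and Tac1 473 to 2372.

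At P17 the IgG-treated OIR retinas held less Cck and more Tac1 and Vip than controls. Cck read 20.5, 22, 12.7 and 22.7 CPM (counts scaled to library size with TMM factors) in the 4 controls and 8.87, 8.70, 6.70 and 4.51 CPM in the 4 IgG retinas. The groups did not overlap, and the lowest control was replicate 3, the library with the high scaling factor. In TPM the same libraries read 74.0 to 94.5 and 15.1 to 34.2, again with a gap. The log2 change was -1.43 (SE 0.338; edgeR adjusted p = 0.012).

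Tac1 moved the other way. Its controls read 49.6, 47.1, 30.2 and 42.5 CPM and its IgG retinas 59.9, 95.5, 88.5 and 85.9 CPM. Each IgG retina stood above each control, with replicate 1 nearest to them. The log2 change was 0.96 (SE 0.214; edgeR adjusted p = 0.0073), or 1.95-fold. Vip read 16.8, 20.5, 12.7 and 9.29 CPM in controls and 21.5, 26.5, 42.4 and 25.2 CPM in IgG retinas. Here too the groups were apart, though narrowly, and replicate 3 of the IgG group was far above its group. The log2 change was 0.96 (SE 0.256; edgeR adjusted p = 0.030).

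The other 4 genes did not pass the test at P17. Npy averaged 75 ± 14 CPM in IgG retinas and 46.3 ± 16.7 in controls (SD, n = 4; edgeR adjusted p = 0.12), with overlap at 1 control of 67.1 CPM. Penk averaged 32 ± 11.4 against 21.9 ± 9.6 CPM (edgeR adjusted p = 0.34). Sst averaged 3.63 ± 0.497 against 3.59 ± 0.724 CPM, with a 95% interval of the log2 change from -0.95 to 0.977. In TPM its order was different: 12.3 to 13.9 in IgG retinas and 16.04 to 21.64 in controls, without overlap (limma-trend on log2(TPM + 1), log2 change -0.479, adjusted p = 0.42). Crh had 1.52 ± 0.487 against 2.60 ± 1.40 CPM, an interval from -1.98 to 0.417. In all, 2 of the 7 genes were called higher, against 2.11% of all genes, and 1 was called lower, against 0.251% of all genes. Since the 7 were chosen with earlier results of these data known, these shares are a description. Non-overlap upward was seen in 6.82% of all genes and downward in 4.58%. The median change of the 7 was 0.543, beside -0.0477 over all genes. A whole retina cannot show whether fewer cells of a type or less RNA per cell lowers a transcript.

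These P17 calls were not firm. With covariates for the marker genes of pigment epithelium and lens, the same 3 changes kept their direction at -1.26 (Cck), 0.851 (Vip) and 0.63 (Tac1), and their edgeR adjusted p became 0.26, 0.41 and 0.48. Both marker sums did not overlap between controls and IgG retinas at P17. This fit therefore cannot well separate the part of neighbouring tissue from that of OIR. Vip was also not called by an edgeR fit of these 2 groups alone (adjusted p = 0.063) or by limma-trend on log2(TPM + 1) (0.14). Leaving out 1 library ended the call of Cck for 2 of 8 libraries (IgG replicates 3 and 4; edgeR adjusted p up to 0.057). It ended that of Vip for 4 of 8 (control replicates 3 and 4, IgG replicates 2 and 3; up to 0.22) and that of Tac1 for 2 of 8 (control replicate 3, IgG replicate 2; up to 0.075).

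**Figure D1:**
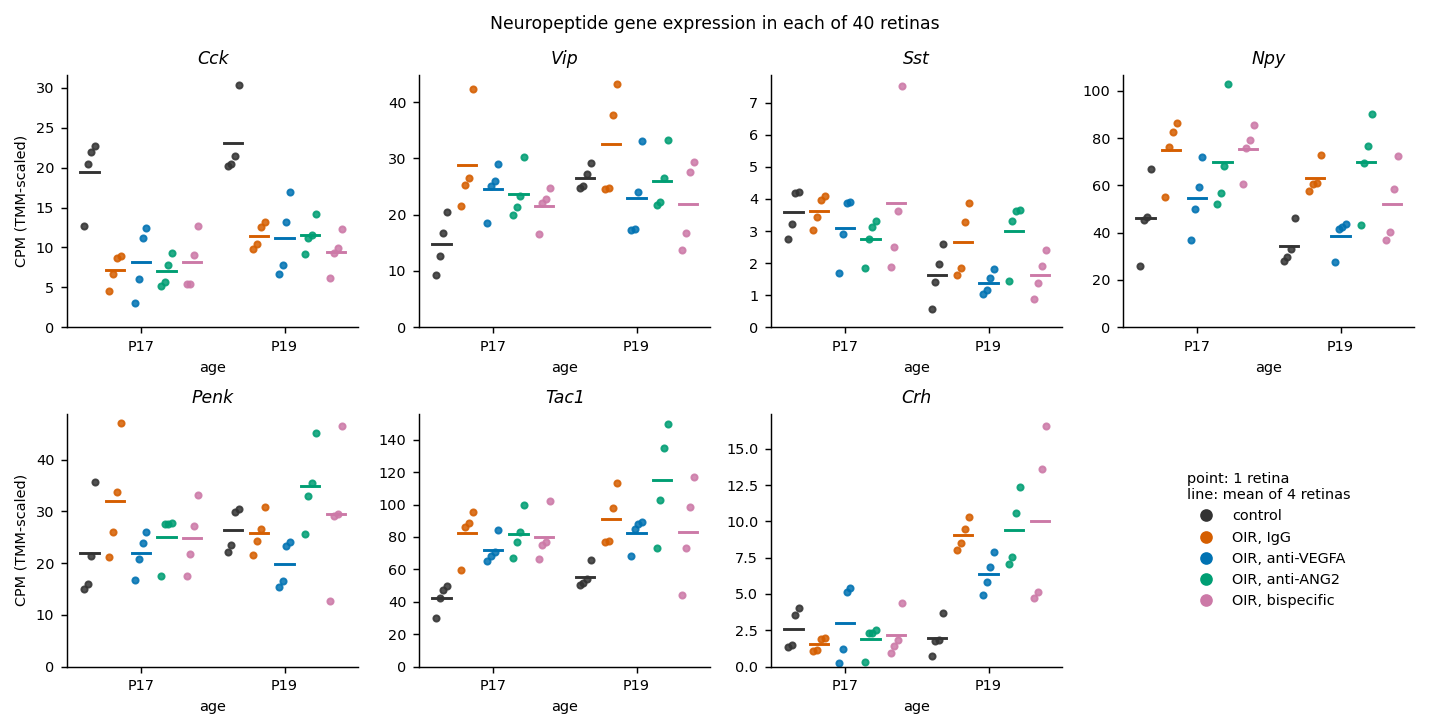
CPM of each neuropeptide gene (vertical axis, linear from 0) in each of 40 retinas, by age and condition; points are retinas and lines are means of 4. Cck lies lower in the OIR groups than in controls at both ages, and Crh in the P19 OIR groups lies at 4.73 to 16.6 CPM against 0.701 to 3.66 CPM in P19 controls.

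At P19 the same comparison called 0 of the 7 genes with edgeR, while it called 0.919% of all genes (0.821% higher and 0.0979% lower). At an unadjusted p under 0.05 there were 4: Cck, Npy, Tac1 and Crh. The share of all genes at that level was not counted, here or for the like counts further on. Such counts are therefore not shown to exceed that of all genes. For these 4 genes the 2 groups did not overlap, with Cck below its controls and the other 3 above. Non-overlap downward was seen in 4.35% of all genes and upward in 6.64%. Cck read 20.2, 21.4, 30.3 and 20.4 CPM in controls and 13.2, 9.77, 12.5 and 10.4 CPM in IgG retinas (log2 change -1.01, SE 0.334; edgeR adjusted p = 0.14). Npy read 28.2, 32.9, 46.3 and 29.8 CPM in controls and 72.9, 60.7, 60.9 and 57.6 CPM in IgG retinas (0.88, SE 0.245; edgeR adjusted p = 0.072). Replicate 3 was the highest of the controls for both genes.

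Tac1 read 51.5, 54.1, 65.6 and 50.3 CPM in P19 controls and 113, 77.1, 97.7 and 77.6 CPM in IgG retinas (log2 change 0.72, SE 0.212; edgeR adjusted p = 0.090). Crh had the widest gap. It read 0.701, 1.80, 3.66 and 1.78 CPM in controls, which is 11 to 59 counts, and 8.52, 10.3, 8.05 and 9.50 CPM in IgG retinas, or 131 to 221 counts. The log2 change was 2.19 (SE 0.604; 4.57-fold; edgeR adjusted p = 0.066). Vip (32.6 ± 9.36 against 26.6 ± 2.07 CPM), Sst (2.65 ± 1.08 against 1.63 ± 0.867) and Penk (25.8 ± 3.96 against 26.5 ± 4.31; SD, n = 4 each) overlapped between the groups. The count at P19 turned on the model. DESeq2 called 4 of the 7 genes (Cck, Npy, Tac1 and Crh), as did limma-voom and an edgeR fit of these 2 groups alone, and limma-trend on log2(TPM + 1) called 2 (Cck and Crh). These fits also called more genes in all, 526, 1122, 761 and 315 in that order, against 216 in the edgeR fit of all groups. Where such a total is not given, a call by another fit cannot be set beside its share of all genes. Without the 5 libraries in doubt edgeR called Crh (adjusted p = 0.032).

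Averaging the 4 OIR groups against the same controls brings in 16 OIR retinas per age and gives the mean change over the 4 groups. It does not test whether each antibody group shares that change. These comparisons share their controls, and 1 of their 4 OIR groups, with the IgG comparisons above. At P17 edgeR called Cck lower (log2 change -1.36, SE 0.242; adjusted p = 0.00052) and Tac1 higher (0.90, SE 0.179; adjusted p = 0.0020). That is 1 gene lower against 0.34% of all genes and 1 higher against 2.37%. Cck ran from 2.99 to 12.7 CPM in the OIR retinas with a median of 7.28, and 16 of 16 stood below the lowest control, which was at 12.7 CPM too and above the highest OIR retina only beyond the digits given. Such a pattern was found in 0.14% of all genes downward. Tac1 ran from 59.9 to 102 CPM with a median of 77.0, and 16 of 16 stood above the highest control (49.6 CPM), as for 1.34% of all genes. Vip was at the threshold (0.72, SE 0.211; edgeR adjusted p = 0.050, not called), with 13 of 16 OIR retinas above the highest control. The share of all genes with 13 of 16 above was not counted. Vip was called by DESeq2 (adjusted p = 0.014), by limma-voom (0.035), by an edgeR fit of the P17 groups alone (0.041) and without the 5 libraries in doubt (0.032). With the pigment epithelium and lens covariates Cck stood at -1.22 (edgeR adjusted p = 0.092) and Tac1 at 0.599 (adjusted p = 0.29), and neither was called. Pigment epithelium sums overlapped the P17 controls only in the anti-VEGFA group, so here too their part and that of OIR are hard to separate.

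At P19 the average over OIR groups called 4 of the 7 genes: 1 lower, against 2.68% of all genes, and 3 higher, against 4.58%. Cck fell by 1.09 on the log2 scale (SE 0.244; edgeR adjusted p = 0.0037), from 20.2 to 30.3 CPM in controls to 6.13 to 17 CPM in OIR retinas, with 16 of 16 below the lowest control (0.481% of all genes). Tac1 rose by 0.74 (SE 0.176; edgeR adjusted p = 0.0064), and 15 of 16 retinas stood above the highest control. The exception was replicate 3 of the bispecific group, the library with the lowest total, at 44.0 CPM, below the lowest control (50.3 CPM). The share of all genes with 15 of 16 above was not counted. Crh rose by 2.11 (SE 0.533; edgeR adjusted p = 0.0095), with 16 of 16 retinas above the highest control (0.83% of all genes). Npy rose by 0.67 (SE 0.202, edgeR adjusted p = 0.033), but its retinas overlapped, from 27.6 to 90.3 CPM against 28.2 to 46.3 CPM. Mean Npy was 63 (IgG), 38.8 (anti-VEGFA), 69.9 (anti-ANG2) and 51.9 CPM (bispecific), beside 34.3 CPM in controls. Leaving out 1 library ended the call of Npy for 4 of 20 (control replicates 1, 2 and 4 and anti-ANG2 replicate 2; edgeR adjusted p up to 0.16) and that of Crh for 1 (control replicate 1; 0.068). With the pigment epithelium and lens covariates the call of all 4 genes held. With the mitochondrial share as a covariate Npy was not called (adjusted p = 0.11), and limma-trend on log2(TPM + 1) gave Npy an adjusted p of 0.26.

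**Figure D2:**
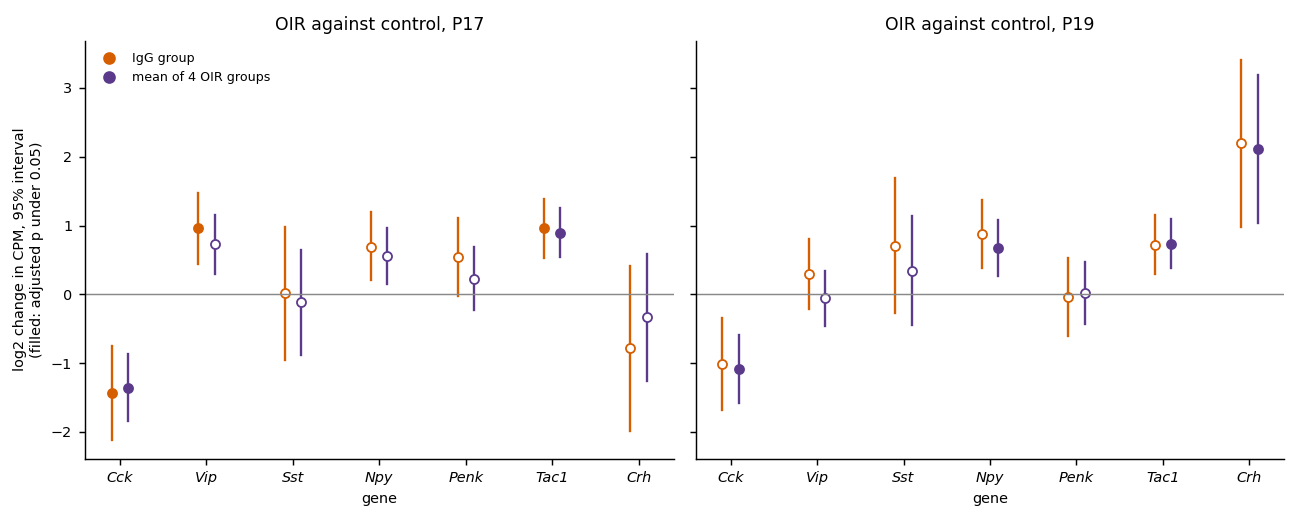
Log2 change in CPM (points) with its 95% interval (lines) of each neuropeptide gene in OIR against control retinas, for the IgG group (4 retinas) and the mean of the 4 OIR groups (16 retinas), at P17 and P19. Filled points passed edgeR's adjusted p threshold of 0.05; Cck is below 0 and Tac1 above 0 at both ages, and Crh is at -0.34 at P17 and 2.11 at P19 in the mean of the OIR groups.

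Since Cck and Tac1 moved in opposite directions, their ratio within a library, which no scaling factor touches, was also described. The pair was picked after its values were seen, so no test was made. As read shares not corrected for length, Cck was 0.413 to 0.534 of Tac1 in P17 controls and 0.392 to 0.463 in P19 controls. In the IgG groups the ratio was 0.0526 to 0.148 at P17 and 0.117 to 0.134 at P19. The anti-VEGFA groups gave 0.0458 to 0.175 and 0.0915 to 0.194, the anti-ANG2 groups 0.0522 to 0.138 and 0.0829 to 0.125, and the bispecific groups 0.0707 to 0.169 and 0.0793 to 0.227. None of the 32 OIR retinas reached the lowest of the 8 control retinas.

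**Figure D3:**
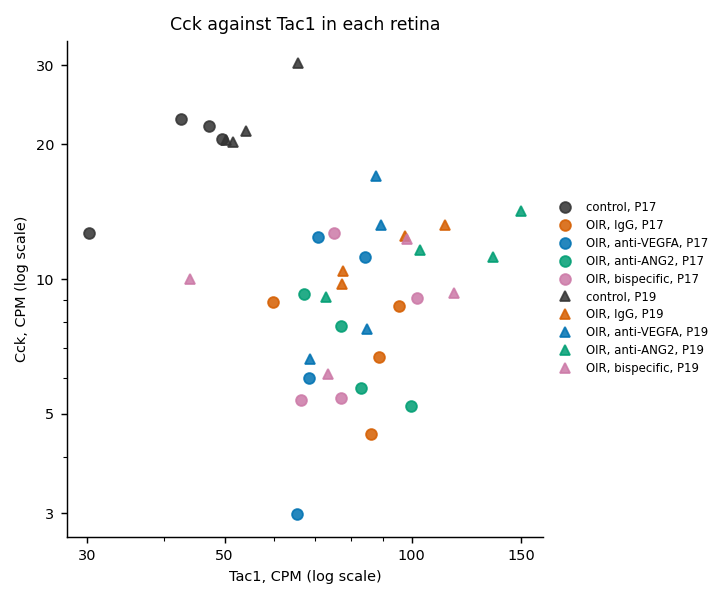
CPM of Cck (vertical, log scale) against CPM of Tac1 (horizontal, log scale) in each of 40 retinas; colour gives the condition and shape the age. The 8 control retinas have a Cck to Tac1 ratio of 0.392 or more and the 32 OIR retinas one of 0.227 or less; the control at the lower left is replicate 3 of P17 and the OIR point nearest to it is bispecific replicate 3 of P19.

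Between P17 and P19, averaged over the 5 conditions, Crh was 2.95-fold higher at P19 and Sst was 0.587-fold. Crh passed edgeR's test clearly (log2 change 1.56, SE 0.267; adjusted p = 0.00037). Sst passed it narrowly (-0.77, SE 0.217; adjusted p = 0.042). This is 1 gene higher against 1.54% of all genes and 1 lower against 1.14%. Leaving out 1 of the 40 libraries kept the call of Crh in each case, and ended the call of Sst in 27 (adjusted p up to 0.075). DESeq2 called 5 genes in this comparison, Crh and Sst with Cck, Npy and Tac1, and 1267 of all genes, where edgeR called 630.

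By condition, Crh in controls averaged 2.60 ± 1.40 CPM at P17 and 1.98 ± 1.23 CPM at P19. In the IgG groups it went from 1.11, 1.09, 1.93 and 1.95 CPM to the P19 values above, without overlap, and the log2 change was 2.58 (SE 0.613; edgeR adjusted p = 0.31). In the anti-ANG2 groups it read 0.335, 2.34, 2.54 and 2.29 CPM at P17 and 12.4, 7.08, 10.6 and 7.58 CPM at P19 (2.33, SE 0.611; edgeR adjusted p = 0.020). This was the 1 call among 5 within-condition age comparisons, of 7 genes each, and it stood beside 3.32% of all genes called higher there. The count became 0 without anti-ANG2 replicate 1 or 4 of P17 or replicate 1 of P19, and 2 (Tac1 and Crh) without replicate 4 of P19. The bispecific groups went from 2.14 ± 1.54 to 10 ± 6.01 CPM without overlap (2.23; edgeR adjusted p = 0.32), and the anti-VEGFA groups from 3.02 ± 2.65 to 6.38 ± 1.26 CPM with overlap (1.07; adjusted p = 0.60). Non-overlap upward was seen in 1.76% of all genes in the IgG groups, 5.78% in the anti-ANG2 groups and 1.2% in the bispecific groups.

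Whether the OIR effect on Crh itself differed between ages was tested as an interaction. With the IgG groups it was 2.98 on the log2 scale (SE 0.845; 95% interval 1.27 to 4.68; edgeR adjusted p = 0.57), and no neuropeptide gene was called, against 0.00426% of all genes, with 1 at an unadjusted p under 0.05. DESeq2, limma-voom and limma-trend called 0 as well. With the mean of the 4 OIR groups, a comparison added after the data were seen, it was 2.45 (SE 0.675; interval 1.09 to 3.81; edgeR adjusted p = 0.19). There 0 of 7 were called against 0.0426% of all genes, with 2 at an unadjusted p under 0.05 (Vip and Crh). limma-voom gave Crh an adjusted p of 0.032 and limma-trend on log2(TPM + 1) 0.042, so the call depended on the model.

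Sst had the reverse order in time. In controls it read 4.17, 4.22, 2.74 and 3.23 CPM at P17 and 1.40, 1.96, 2.61 and 0.56 CPM at P19, without overlap (log2 change -1.14, SE 0.489; edgeR adjusted p = 0.68). The anti-VEGFA groups gave -1.16 and the bispecific groups -1.23, while the IgG groups gave -0.45 and the anti-ANG2 groups 0.13. Vip in controls was also apart between ages, at 14.8 ± 4.88 CPM at P17 and 26.6 ± 2.07 at P19 (0.84, SE 0.256; adjusted p = 0.31), and so was Tac1 at 42.4 ± 8.64 and 55.4 ± 6.98 CPM. Among control libraries non-overlap was seen upward in 3.23% and downward in 2.15% of all genes. edgeR called 0 of 7 in controls against 0.0979% of all genes, with 2 at an unadjusted p under 0.05 (Vip and Sst). limma-trend on log2(TPM + 1) called Sst there, and DESeq2 and limma-voom called none. In the IgG, anti-VEGFA and bispecific groups edgeR also called 0 of 7 between ages, against 0.00851%, 0% and 0.0298% of all genes, with 1, 2 and 3 at an unadjusted p under 0.05. DESeq2 called Crh in the IgG and the bispecific groups. How many of all genes these other fits called within a condition is not given here.

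The antibodies were compared with IgG within OIR at each age, which asks whether blocking VEGFA, ANG2 or both moved the peptide genes 3 or 5 days after injection. The 3 comparisons of an age share the same 4 IgG retinas. edgeR called 0 of the 7 genes in each of the 6 comparisons, and so did DESeq2, limma-voom and limma-trend. Of all genes, edgeR called 0% in each of the 3 comparisons at P17 and, at P19, 0% for anti-VEGFA, 0.0979% for anti-ANG2 and 0.0468% for the bispecific antibody. At an unadjusted p under 0.05 no neuropeptide gene appeared at P17, and at P19 there was 1 for anti-VEGFA (Npy), 0 for anti-ANG2 and 1 for the bispecific antibody (Vip). Mitochondrial counts at P19 made up 4.11 to 6.2% of the total under IgG and 6.45 to 10.58% under anti-ANG2, without overlap. They made up 5.84 to 9.63% under anti-VEGFA and 4.735 to 6.89% under the bispecific antibody. With this share as a covariate edgeR still called 0 of the 7 genes in each of the 6 comparisons.

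Npy under anti-VEGFA at P19 was the nearest to a difference. It read 41.5, 27.6, 42.5 and 43.5 CPM, each below the 57.6 to 72.9 CPM of the IgG retinas and close to the 28.2 to 46.3 CPM of the controls. The log2 change from IgG was -0.70 (SE 0.245; 95% interval -1.19 to -0.207; edgeR adjusted p = 0.32). Crh in the same comparison was also below each IgG retina, at 4.95 to 7.86 CPM (-0.51; interval -1.67 to 0.647). Such non-overlap downward was seen in 2.65% of all genes. Of the 7 genes, 7 had a change below 0 under anti-VEGFA at P19, with a median of -0.502 beside 0.0331 over all genes, but they vary together between retinas, as given further on, and are not 7 separate observations. Under anti-ANG2 at P19 the median was 0.15 and under the bispecific antibody -0.279.

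For Cck, no difference between an antibody and IgG was detected. The 95% intervals of its log2 change against IgG ran from -0.495 to 0.855 (anti-VEGFA), -0.724 to 0.634 (anti-ANG2) and -0.504 to 0.848 (bispecific) at P17. At P19 they ran from -0.708 to 0.636, -0.663 to 0.681 and -0.954 to 0.395. For Tac1 the 6 intervals lay between -0.619 (anti-VEGFA at P17) and 0.759 (anti-ANG2 at P19). Crh had the widest intervals of the 7, for example -0.203 to 2.20 under anti-VEGFA at P17.

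**Figure D4:**
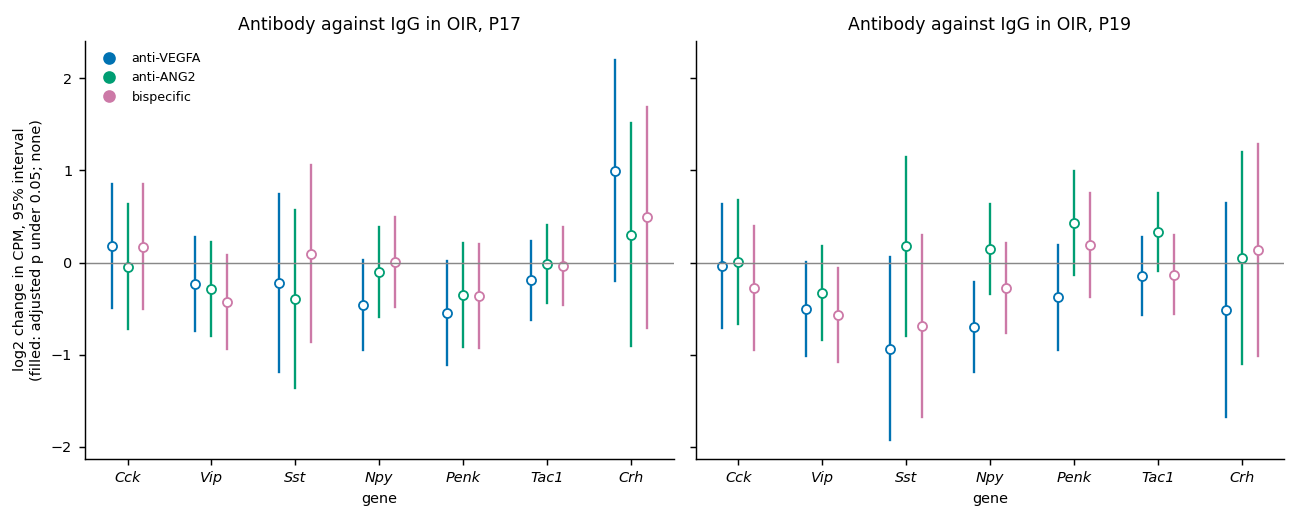
Log2 change in CPM (points) with its 95% interval (lines) of each neuropeptide gene for 3 antibodies against control IgG in OIR retinas at P17 and P19, 4 retinas per group. Open points did not pass edgeR's adjusted p threshold of 0.05, which holds for all 42 points; at P19 the anti-VEGFA points (blue) lie below 0 for 7 of 7 genes, with Npy at -0.70.

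The antibodies were also compared with each other, giving 6 more comparisons. edgeR called 0 of 7 genes in each. The share of all genes called was 0% in the 3 comparisons at P17, and at P19 it was 0.238% for anti-VEGFA against anti-ANG2, 0.0553% for the bispecific antibody against anti-VEGFA and 0% for the bispecific antibody against anti-ANG2. At an unadjusted p under 0.05 anti-VEGFA against anti-ANG2 at P19 gave 4 genes (Sst, Npy, Penk and Tac1), each lower under anti-VEGFA, and the bispecific antibody against anti-ANG2 at P19 gave 1 (Tac1). Npy averaged 38.8 ± 7.53 CPM under anti-VEGFA and 69.9 ± 19.9 under anti-ANG2 (SD, n = 4; log2 change -0.85, SE 0.245; edgeR adjusted p = 0.094). DESeq2 called this difference and edgeR did too once anti-ANG2 replicate 4 was left out. Penk was apart, at 15.4 to 24 CPM under anti-VEGFA and 25.7 to 45.2 under anti-ANG2 (-0.81, SE 0.282; adjusted p = 0.14), with such non-overlap in 1.99% of all genes. The TMM factors of the anti-ANG2 retinas at P19 were low, 0.743 to 0.986, against 0.94 to 1.07 under anti-VEGFA. In TPM, Penk read 18.6 to 29.3 and 31.1 to 33.2, still apart. Tac1, at 82.5 ± 9.57 CPM under anti-VEGFA, 83.2 ± 31.7 under the bispecific antibody and 115 ± 34.2 under anti-ANG2, was closer in TPM, at 138 ± 12.1, 143 ± 43.9 and 146 ± 22.8 (SD, n = 4).

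Between retinas of the same group the 7 genes varied together on log2 CPM. The share of such pairs over all genes was not computed, so this is not shown to be particular to the 7. After the group means were taken out, 14 of the 21 pairs had a Pearson correlation with an adjusted permutation p under 0.05 over the 40 retinas, and all 21 coefficients were positive, from 0.161 (Cck with Vip) to 0.729 (Npy with Tac1). For Npy and Tac1, Spearman's rho was 0.772 and r was 0.663 without the 2 libraries farthest from the median of Npy (permutation p = 2e-05, adjusted p = 0.00042; 100000 permutations within groups). Vip and Tac1 gave r = 0.626 (rho 0.612, 0.615 without 2 libraries; permutation p = 0.00044, adjusted 0.0031), and Vip and Crh gave r = 0.564 (rho 0.636, 0.53 without 2; permutation p = 5e-05, adjusted 0.00052). Cck, which moved against Tac1 in OIR, had r = 0.291 with it within groups (rho 0.368; permutation p = 0.055, adjusted 0.072).

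Library properties moved with these deviations. Within groups, log2 CPM correlated with the TMM factor at r = -0.799 for Tac1, -0.568 for Vip, -0.56 for Npy, -0.435 for Sst, -0.405 for Crh, -0.356 for Cck and -0.257 for Penk. The mean log2 CPM of the ganglion cell genes correlated with the 7 at r = 0.272 to 0.60, and that of the amacrine cell genes at 0.019 to 0.273 (40 libraries, no test). On log2(TPM + 1) only 2 of the 21 pairs passed (Vip with Crh, and Npy with Tac1).

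**Figure D5:**
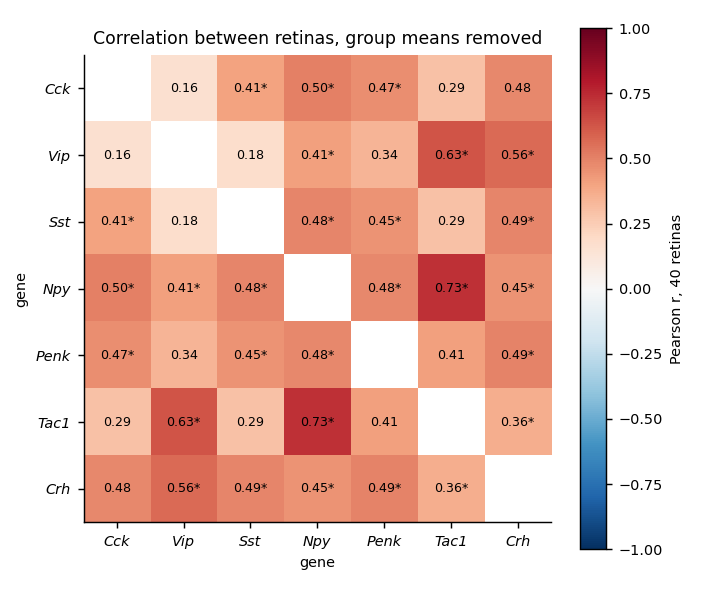
Pearson r between the log2 CPM of each pair of neuropeptide genes over 40 retinas with the group means removed (colour and printed value; an asterisk marks an adjusted permutation p under 0.05). Npy with Tac1 is highest at 0.73 and Cck with Vip lowest at 0.16, and 14 of 21 pairs carry an asterisk.

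The share of variance of log2 CPM between groups was 64.5% for Crh, 63.7% for Cck, 62.8% for Tac1, 57.8% for Npy, 50.3% for Sst, 45.6% for Vip and 28.5% for Penk, beside a median of 29.7% and a 90th percentile of 49.4% over all genes. Penk was the 1 below that median, and Vip the other below the 90th percentile. The biological coefficient of variation from edgeR was 21.2% for Tac1, 24.2% for Npy, 25.1% for Vip, 27.7% for Penk, 32.4% for Cck, 44.1% for Sst and 55.1% for Crh. Genes of like abundance had medians of 17.5% beside Tac1, 18.5% beside Npy, 57.5% beside Sst and 50.7% beside Crh.

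By pattern over the 40 libraries, the genes most like each were searched among 11423 or 11424 genes with a mean of at least 5 CPM. Tac1 was most like Chmp5 (r = 0.901), a subunit of the membrane-cutting ESCRT machinery, and Selenof (0.896). Npy was most like Igfbp7 (0.899) and Sparc (0.888), both secreted matrix-associated proteins. The others had lower maxima: Cck with Inafm1 (0.766) and Nrsn1 (0.761), Vip with Sucla2 (0.775) and Capza2 (0.738), Penk with Arpp19 (0.719) and Rab13 (0.678), Crh with Slc31a2 (0.719) and Rd3 (0.714), and Sst with Maged2 (0.715) and Tubb2b (0.672). With the group means removed r stayed at 0.84 for Tac1 with Chmp5 and 0.794 for Npy with Igfbp7, and was 0.371 for Crh with Slc31a2. The points share depth and scaling factors, and no test was made.

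The receptors of the 7 peptides formed a list of 21 genes, of which 18 were tested. Their transcripts were scarce, and 9 of 21 averaged at least 1 TPM. Vipr2, a receptor of Vip, was highest at 18.5 TPM, followed by Cckbr (5.85), the brain-type cholecystokinin receptor, and Tacr3 (5.80), the neurokinin B receptor. edgeR called 0 of 18 in IgG retinas against controls at either age, with 2 at an unadjusted p under 0.05 at P17 and 0 at P19 (median log2 change -0.174 at P17 and -0.525 at P19, beside -0.0477 and -0.0523 over all genes). No other tool was run on the lists. Vipr2 averaged 44.9 ± 15.7 against 54.4 ± 9.57 CPM at P17 and 38.4 ± 12.6 against 50.1 ± 6.98 CPM at P19 (SD, n = 4). Cckbr averaged 9.95 ± 2.47 against 10.9 ± 1.65 CPM at P17. In the mean of the 4 OIR groups at P19, 1 receptor was lower, Tacr3 (log2 change -0.89, SE 0.283; edgeR adjusted p = 0.045), and 2 of the 18 changes were above 0, with a median of -0.627 beside -0.0475.

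Among 38 other peptide precursors, 25 were tested. Pomc, the precursor of melanocortins and beta-endorphin, was the 1 called in IgG retinas, at both ages. It read 25.9 ± 4.12 against 10.9 ± 4.5 CPM at P17 (2.39-fold; edgeR adjusted p = 0.0039) and 18.9 ± 0.889 against 7.56 ± 0.899 CPM at P19 (2.50-fold; edgeR adjusted p = 0.0055). Cartpt, which had the highest level of the list at 418 TPM, averaged 162 ± 10.4 against 164 ± 44.4 CPM at P17 and 196 ± 34.5 against 218 ± 28.2 CPM at P19. Tac2, the neurokinin B precursor and a relative of Tac1, averaged 44.7 ± 6.06 against 25.9 ± 5.24 CPM at P17 (log2 change 0.79; edgeR adjusted p = 0.053). It passed in the mean of OIR groups at P17 (0.83, SE 0.19; adjusted p = 0.0087), where Pomc was also higher and Ucn3, at under 1 TPM, was lower. The list's median was -0.0154 at P17 and 0.21 at P19. Adcyap1, the PACAP precursor, was 1.75-fold at P19 against P17 over the 5 conditions (edgeR adjusted p = 0.026), the 1 call of the list there.

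Of 19 peptide processing and granule genes, 19 were tested and edgeR called 0 in IgG retinas against controls at either age, with 5 at an unadjusted p under 0.05 at P17 and 2 at P19 (median 0.14 at P17, -0.127 at P19). The most abundant transcripts of this list were Cpe, which trims the ends of peptides, at 1020 TPM, Scg5, the partner of the convertase PCSK2, at 482 TPM, and the granin Scg2 at 284 TPM. Cpe averaged 1640 ± 74.7 against 1260 ± 206 CPM at P17 (edgeR adjusted p = 0.26) and 1620 ± 206 against 1670 ± 88.9 CPM at P19. Between ages Vgf, a granin-like precursor, was 2.16-fold at P19 (edgeR adjusted p = 0.00035) and Qpct was 0.728-fold (adjusted p = 0.0013). Qpct, which closes the amino end of some peptides into pyroglutamate, was also the 1 gene of the list called for anti-ANG2 against IgG at P19 (log2 change -1.08, SE 0.194; edgeR adjusted p = 0.0081) and for the bispecific antibody against IgG at P19 (-0.98, SE 0.194; adjusted p = 0.025). Those comparisons share the IgG retinas, which stood at 165 ± 16.4 CPM for Qpct beside 108 ± 21.7 in controls. In the bispecific comparison sex and antibody cannot be told apart, as given above. Of 10 degradation genes, edgeR called 0 in IgG retinas at either age, with 1 at an unadjusted p under 0.05 at P17 and 0 at P19. Crhbp, the protein that binds and holds CRH, was lower in the mean of OIR groups at P17 (-1.22, SE 0.261; edgeR adjusted p = 0.0041), an age at which Crh itself was not called.

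The cells that make these peptides were read through 25 amacrine cell genes (24 tested) and 14 ganglion cell genes (13 tested). At P17 edgeR called 0 of each in IgG retinas, with 3 of each at an unadjusted p under 0.05 and medians of -0.099 and 0.142. The share of all genes at that level was not counted. In that comparison Penk, just past that level at an unadjusted edgeR p of 0.059, ranked 4088 of the 23495 genes tested. At P19 Slc17a8, the vesicular glutamate transporter of glycinergic amacrine cells, was lower in IgG retinas (3.20 ± 0.554 against 9.73 ± 0.997 CPM, 0.328-fold; edgeR adjusted p = 0.045). Nefh, the heavy neurofilament of ganglion cell axons, was lower as well (148 ± 19.3 against 275 ± 61.3 CPM, 0.537-fold; edgeR adjusted p = 0.025). In the mean of OIR groups at P19, 5 of 24 amacrine cell genes were lower, among them Slc6a9, Slc17a8 and Gad1, and 0 higher, beside 2.68% of all genes lower and 4.58% higher, with 1 of 24 changes above 0 and a median of -0.421. In that comparison 4 of 13 ganglion cell genes were lower (Nefh, Nefl, Nefm and Isl2) and 0 higher, with a median of -0.41. These genes, like Tac2, Ucn3 and Crhbp above, fall outside the rule for naming list genes and were picked after their values were seen. Slc6a9, the glycine transporter, stood at -0.99 (SE 0.171; edgeR adjusted p = 0.00037) and Gad1, which makes GABA, at -0.82 (SE 0.195; adjusted p = 0.0063). Of the neuropeptide genes, Cck was lower in that comparison, as these cell genes were, while Tac1, Npy and Crh were higher. Between ages Lamp5, a membrane protein of some amacrine cells, was 0.777-fold at P19 (edgeR adjusted p = 0.032). The part of cell number in these differences was not tested.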

How the data were processed

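Whole-retina RNA (SMART-Seq mRNA libraries, Nextera XT, per the labels' protocols) was measured in 40 samples. The authors deposited expected counts and TPM per gene; per the submitters' processing notes the tools included STAR 2.7.10a and RSEM 1.3.3 with build GRCm38.p4. The annotation and whether counting used strand are not given in the sources used here. Expected counts were rounded (15.68% of values above 0 were not whole). Groups came from the labels. Genes were filtered by filterByExpr, scaled by TMM and fitted over all 10 groups with edgeR 4.0.16 (robust quasi-likelihood, R 4.3.3). P-values were adjusted by Benjamini-Hochberg within each of 24 comparisons over all genes tested, and a call was an adjusted p under 0.05. limma 3.58.1, DESeq2 1.42.0, other scalings, no filter, a replicate block, covariates, fewer libraries and leaving out 1 library each were alternatives. TPM was tested as log2(TPM + 1). The fit was tested on simulated data. The members and lists were chosen with earlier results of these data known. From each list, the 3 genes of highest mean TPM (receptors, precursors, processing) and up to 4 genes called in the IgG or mean age comparisons, smallest p first, were named, with Rpe65 and Cryaa for neighbouring tissue; likeness named the 2 genes of highest Pearson r among those with a mean of at least 5 CPM. Not every gene of the lists is reported here by name.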

Additional observations from a re-analysis of the deposited data

Results flagged for a closer look

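Each gene's 4 libraries in each group were searched for 1 library whose gap to the nearest of the others took up more of the group's range than Dixon's critical value allows, and 5 of 70 groups (7.14%) had one, where chance gives about 1 in 20. Cck read 30.3 CPM in control replicate 3 at P19 and 20.2 to 21.4 CPM in the others. Sst read 1.43 CPM in anti-ANG2 replicate 4 at P19, with the others at 3.32 to 3.66 CPM. Npy read 27.6 CPM in anti-VEGFA replicate 2 at P19, with the others at 41.5 to 43.5 CPM. Penk and Crh were low in the same library, anti-ANG2 replicate 1 at P17, at 17.4 CPM (others 27.5 to 27.8) and 0.335 CPM (others 2.29 to 2.54).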

How the results depend on the processing

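For IgG against control at P17, 3 neuropeptide genes were called, and 0 with pigment epithelium and lens covariates; Vip alone lost its call with the groups compared only and with limma-trend, and leaving out 1 library gave 1 to 3. At P19 that comparison called 0, but 2 with those covariates, 3 with the mitochondrial share, 1 without the 5 libraries in doubt, 4 with the groups compared only, 4 with limma-voom, 2 with limma-trend on log2(TPM + 1) and 4 with DESeq2. The mean of OIR groups at P17 went from 2 to 0 with the pigment epithelium and lens covariates and to 3, with Vip, under 5 other settings and on leaving out any of 4 single libraries. At P19 it went from 4 to between 2 and 4 on leaving out 1 library. The age mean, 2 calls, gave 1 with no filter, with the mitochondrial share or without the 5 libraries, 4 with limma-voom, 5 with DESeq2 and 1 to 3 on leaving out 1 library. Within conditions the age count was 0 for anti-ANG2 with the mitochondrial share and 0 to 2 on leaving out 1 library; 1 for IgG with the groups compared only or DESeq2; 1 for the bispecific groups with limma-voom or DESeq2; and 1 for controls with limma-trend. The OIR by age term of the mean of OIR groups gave 1 with limma-voom and 1 with limma-trend. Anti-VEGFA against anti-ANG2 at P19 gave 1 with DESeq2 and 0 to 1 on leaving out 1 library. Pairs of genes passing numbered 2 on log2(TPM + 1).

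Changes near 0 reversed. Sst at P17 (IgG) became -0.0319 with RLE factors, -0.568 with pigment epithelium and lens covariates, -0.03 with the mitochondrial share, -0.0311 without the 5 libraries, -0.0235 with the groups compared only, -0.0185 with limma-voom, -0.479 with limma-trend, -0.0344 with DESeq2 and -0.114 to 0.103 on leaving out 1 library. Penk in the mean of OIR groups at P19 became -0.00282 with no filter, -0.0327 with the mitochondrial share, -0.00566 without the 5 libraries, -0.00337 with limma-voom, -0.318 with limma-trend and -0.0576 to 0.0956 on leaving out 1 library. Penk at P17 there became -0.0162 with the tissue covariates and -0.00505 with limma-trend. Vip at P19 became 0.0119 without the 5 libraries, Sst at P19 -0.0192 and Penk between ages -0.0795 with limma-trend. The OIR by age terms of Penk and Tac1 became 0.0205 and 0.134 with the tissue covariates, and that of Npy ran from -0.12 to 0.312 and Penk at P19 (IgG) from -0.137 to 0.0379 on leaving out 1 library. The causes were not tested.

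On log2(TPM + 1) the median change of all genes was -0.223 for IgG at P17 and -0.147 at P19, beside -0.0496 and -0.062 on TMM-scaled log2 CPM. The neuropeptide genes did not all move by that shift. At P17 Tac1 went from 0.962 to 0.607, Vip from 0.969 to 0.6 and Npy from 0.749 to 0.377. Penk went from 0.567 to 0.214, Cck from -1.43 to -1.77, Sst from 0.0261 to -0.479 and Crh from -0.623 to -0.735. Same-numbered replicates correlated at -0.132 to 0.154 over 32 pairs. These values gave no sign of pairing by number, but they cannot exclude shared mice, litters or batches. With the replicate block the age mean called 1 gene (Sst edgeR adjusted p = 0.051). Vip in the mean of OIR groups at P17 was then called (0.759, edgeR adjusted p = 0.023). Depth limits Sst and Crh, with as few as 10 and 5 counts in a library.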
